A study of Mus musculus with 14 samples.

Results

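The ribosome biogenesis genes described here are 40 mouse genes for the making of ribosomes, chosen by name, each followed through the array probes whose transcript accession belongs to it. Of the 40, 37 were measured and tested, with 59 probes, among 32463 genes tested in all. Wdr43, Utp20 and Gnl3 had no probe matched by accession and were not analysed here. Of the 37, 36 were well above background on all 14 arrays, and none had a saturated spot. The remaining gene, Nhp2, lacked a value on 1 Kit+Gr1-Sca1hi array, where its spot was marked as an outlier.

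Ribosomes are assembled in the nucleolus. RNA polymerase I transcribes a long precursor RNA there, small nucleolar ribonucleoproteins (snoRNPs) guide its methylation and pseudouridylation, and separate sets of factors fold, cut and export the small and the large subunit. Nucleoli are prominent in blast cells and early granulocyte precursors and are lost from mature granulocytes, and Myc proteins are known activators of many genes of the pathway.

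The cells were FDCPmix, 1 mouse haematopoietic progenitor line of bone marrow origin, kept under maintenance conditions with interleukin-3 conditioned medium and horse serum, so all groups share the line and the culture. Stained cells were sorted by flow cytometry on Kit, the stem cell factor receptor, Gr1, an antigen of granulocytes and their precursors, and Sca1, the product of Ly6a. The Gr1+ cells (3 arrays), the Kit-Gr1- cells (3) and the Kit+Gr1- cells, split into a Kit+Gr1-Sca1hi (3) and a Kit+Gr1-Sca1lo (3) fraction, stand beside 2 arrays of unfractionated cells. The series describes all of these as biological replicates. Labelled cRNA from each sample was hybridised to 1 Agilent single-colour array, and all 14 arrays lay on 4 slides. Values below are log2 processed signals minus the 75th percentile of the array, so 0 is that percentile, and only the same gene can be compared across arrays.

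On 4 arrays the signals covered a narrower range than on the other 10: the interquartile range of the log2 signals was 1.78 to 3.42 on unfractionated replicate 1 and replicate 3 of Kit+Gr1-Sca1hi, Kit+Gr1-Sca1lo and Gr1+, against 4.17 to 4.92. Results are therefore given with all 14 arrays and without these 4 narrow arrays. The gate showed in Kit, which read -2.07 to -1.65 in Kit-Gr1- cells and -0.23 to 0.73 in Kit+Gr1- cells. It read 0.38 to 0.92 in Gr1+ cells, so the Gr1+ fraction did not read lower for Kit than the Kit+Gr1- fractions. Ly6c1, a gene of the Ly6 family to which the Gr1 antigen belongs, read 5.68 to 6.67 in Gr1+ cells and at most 0.89 in the other sorted fractions, and Ly6g had no tested probe. Ly6a read -0.56 to 0.14 in Kit+Gr1-Sca1hi cells, -2.99 to -2.41 in Kit+Gr1-Sca1lo cells and 2.52 to 3.00 in Gr1+ cells.

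The main comparison asked which of these genes differ between Gr1+ cells and the mean of both Kit+Gr1- fractions. All 37 read lower in Gr1+ cells (56.6% of all genes did), by 0.25 (Pes1) to 1.18 (Ddx21) on the log2 scale, with a median of -0.67, whereas the median over all genes tested was -0.05. Each member stayed below 0 in each of the 24 alternative fits that tested it (23 for Nhp2), although Utp14a and Rrp12 did not within each slide. The spread behind each test was pooled over all 14 arrays, those of the unfractionated cells included. A gene was called at a limma adjusted p (Benjamini-Hochberg over all genes) under 0.05 and at least a 2-fold change. By that rule Ddx21 alone fell, 1 of 37, and none rose; of all genes 0.641% were called lower and 1.38% higher. At an unadjusted p under 0.05, 15 members were lower, against 4.16% of all genes. In 14 members all 3 Gr1+ arrays lay below all 6 Kit+Gr1- arrays, which held for 3.79% of all genes.

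Without the 4 narrow arrays the differences were larger and the errors smaller. The median became -0.91 (all genes 0.05), and 17 of 37 members were called lower against 3.32% of all genes, with none called higher (3.68% of all genes). In that fit 34 members had a limma adjusted p under 0.05 and a lower value, against 9.42% of all genes, the exceptions being Utp14a, Bysl and Pes1. Both remaining Gr1+ arrays lay below all 4 remaining Kit+Gr1- arrays for each of the 37, as they did for 20.4% of all genes. This fit held 10 arrays, 1 of them unfractionated. In bulk samples such as these, fewer cells of a type and less RNA per cell cannot be told apart.

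**Figure D1:**
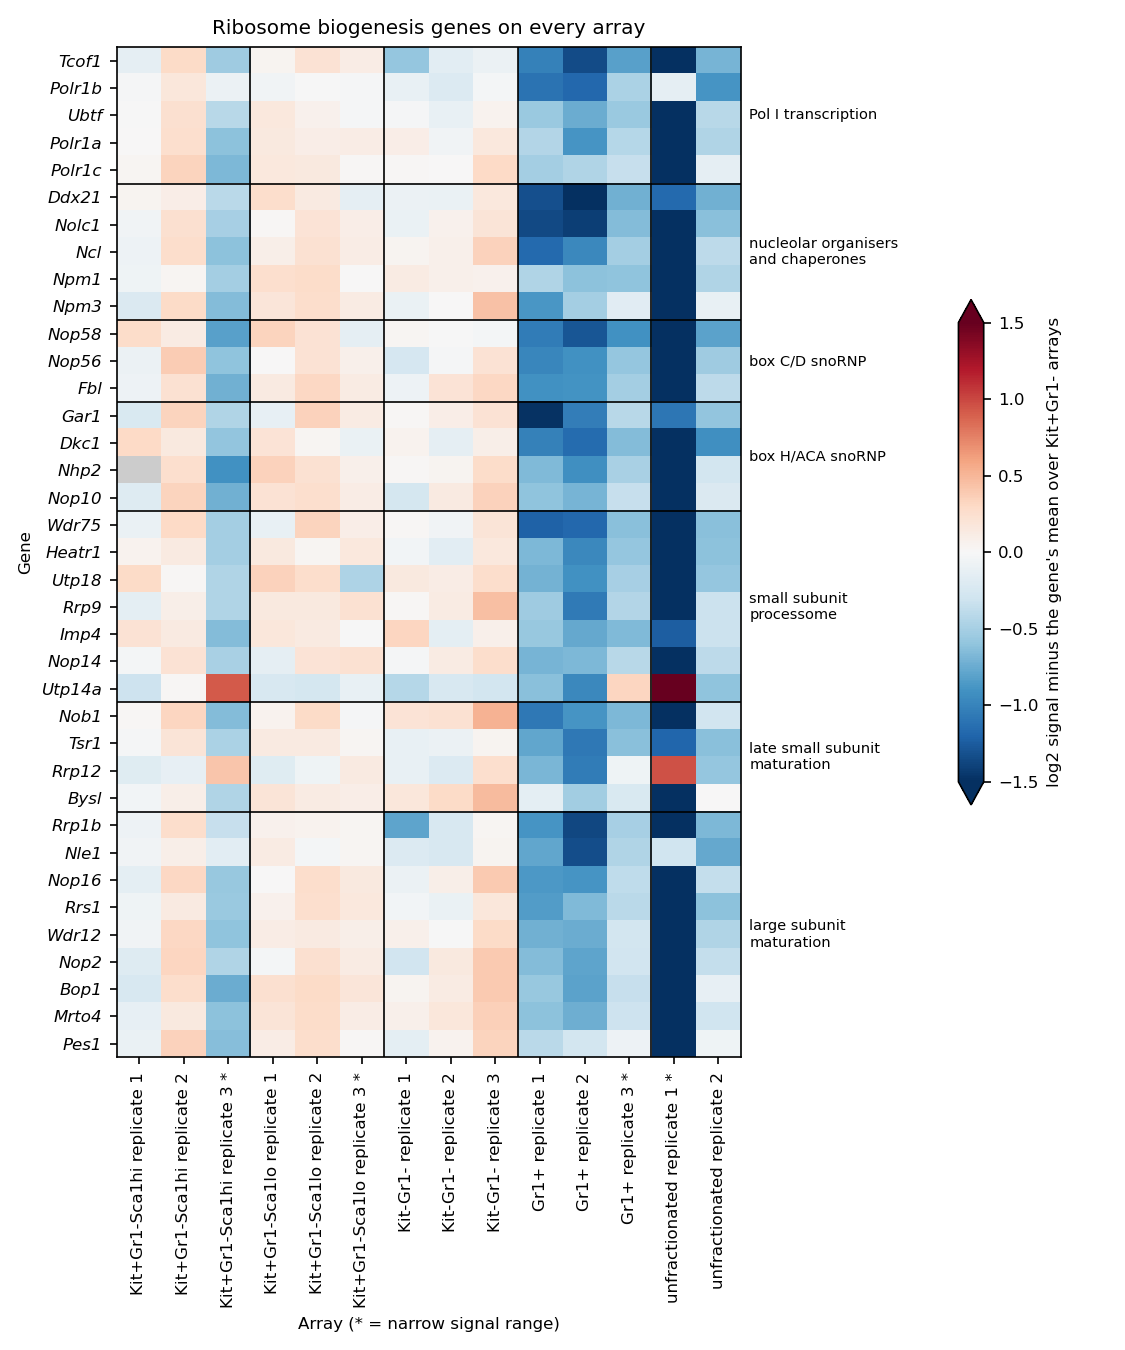
Log2 signal of the 37 measured genes (rows, by role) on the 14 arrays (columns), each minus the gene's mean over the Kit+Gr1- arrays; blue is lower, red is higher, the colours saturate at the ends of the scale, grey is the missing Nhp2 value and asterisks mark the 4 narrow arrays. The 3 Gr1+ columns are blue for nearly every gene, Kit-Gr1- columns are near white, and the narrow unfractionated replicate 1 stands apart from every other array.

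The promoter stretches of 5 members are shown because Ddx21 was the called gene, Nolc1 had the next largest difference, and Utp18, Imp4 and Nop2 carry the letters CACGTG, which Myc and related factors can bind, ahead of the start. Each is the 150 bases before the start site, 5′ to 3′ on the gene's strand, from RefSeq on GRCm38.p6, with CACGTG in capitals.
Ddx21, chr10:62602299-62602448, minus strand: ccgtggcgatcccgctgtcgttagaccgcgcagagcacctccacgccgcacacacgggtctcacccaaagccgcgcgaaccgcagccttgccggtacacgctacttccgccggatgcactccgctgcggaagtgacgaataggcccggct
Nolc1, chr19:46075697-46075846, plus strand: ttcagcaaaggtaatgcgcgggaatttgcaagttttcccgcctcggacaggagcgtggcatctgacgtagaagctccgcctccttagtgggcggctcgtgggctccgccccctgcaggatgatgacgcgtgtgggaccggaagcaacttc
Utp18, chr11:93885767-93885916, minus strand: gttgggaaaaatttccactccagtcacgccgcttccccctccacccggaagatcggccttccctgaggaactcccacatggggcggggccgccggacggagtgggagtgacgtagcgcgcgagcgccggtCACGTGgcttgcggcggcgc
Imp4, chr1:34439679-34439828, plus strand: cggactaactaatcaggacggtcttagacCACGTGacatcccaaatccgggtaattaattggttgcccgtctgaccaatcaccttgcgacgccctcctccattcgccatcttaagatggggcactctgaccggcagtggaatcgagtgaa
Nop2, chr6:125131733-125131882, plus strand: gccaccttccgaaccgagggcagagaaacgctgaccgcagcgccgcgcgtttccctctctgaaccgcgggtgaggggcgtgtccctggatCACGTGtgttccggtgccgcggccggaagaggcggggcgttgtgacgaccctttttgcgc

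RefSeq windows of 250 bases before to 50 after the start were at hand for 34 of the 40 members. CACGTG, which reads the same on both strands, was in the windows of 8 of these 34 (23.5%): Imp4, Nle1, Nop2, Pes1, Tsr1, Utp18, Utp20 and Wdr43. Of 27025 genes with a window, 8.09% held it. In the stretches shown it begins 20 bases before the start in Utp18, 60 in Nop2 and 121 in Imp4, and neither Ddx21 nor Nolc1 has it. The median Gr1+ difference was -0.69 for the 6 tested members with it and -0.71 for the 25 without it. CCGGAAG on either strand, a core that ETS factors bind, was a motif added after the values were seen. It was in the windows of 8 of the 34 members (23.5%) and of 9.93% of the 27025 genes with a window. For CCGGAAG the median Gr1+ difference was -0.72 for the 8 tested members with it and -0.67 for the 23 without it. Neither split was tested. The 27025 genes were not matched to the members in base composition. These matches describe letters, not binding.

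Among the 5 genes of RNA polymerase I transcription the median difference was -0.62, and 0 were called with all 14 arrays. Tcof1, whose product treacle brings the polymerase and its factors to the ribosomal genes, had the largest. Tcof1 read 3.23, 3.65 and 2.83 in Kit+Gr1-Sca1hi cells, 3.41, 3.58 and 3.48 in Kit+Gr1-Sca1lo cells and 2.79, 3.21 and 3.27 in Kit-Gr1- cells. In Gr1+ cells Tcof1 read 2.35, 2.02 and 2.55, and in unfractionated cells 0.77 and 2.66. All Gr1+ arrays were below all Kit+Gr1- and Kit-Gr1- arrays, the narrow Gr1+ replicate 3 being the highest of the Gr1+ arrays. The difference was -1.06 ± 0.36 (SE; limma adjusted p = 0.252), and -1.28 ± 0.19 without the narrow arrays, where Tcof1 was called lower.

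Polr1c, a subunit shared by RNA polymerases I and III, read 4.25, 4.56 and 3.55 in Kit+Gr1-Sca1hi cells, 4.39, 4.37 and 4.25 in Kit+Gr1-Sca1lo cells and 4.25, 4.23 and 4.53 in Kit-Gr1- cells. In Gr1+ cells Polr1c read 3.73, 3.78 and 3.89, and in unfractionated cells 1.10 and 4.09. Its Gr1+ arrays were below 5 of the 6 Kit+Gr1- arrays, and the narrow Kit+Gr1-Sca1hi replicate 3 was the lowest of all sorted arrays. This smallest difference of the group was -0.43 ± 0.50 (limma adjusted p = 1.00) and -0.64 ± 0.15 without the narrow arrays. Polr1b, the second largest subunit, differed by -0.92 ± 0.22 with a limma adjusted p of 0.0497, which passes the p threshold but not the 2-fold one, and was called without the narrow arrays (-1.16 ± 0.14). The largest subunit Polr1a differed by -0.58 ± 0.36, and Ubtf, the factor that holds active ribosomal genes open, by -0.62 ± 0.34. Neither of those passed the test with all arrays (limma adjusted p = 0.991 and 0.81).

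The nucleolar organisers and chaperones had the lowest median of the 7 roles with all arrays, -0.88 over 5 genes, and held the called gene. Ddx21, an RNA helicase that couples polymerase I transcription to processing of the precursor, read 2.36, 2.41 and 1.91 in Kit+Gr1-Sca1hi cells, 2.57, 2.45 and 2.18 in Kit+Gr1-Sca1lo cells and 2.23, 2.22 and 2.47 in Kit-Gr1- cells. In Gr1+ cells Ddx21 read 0.99, 0.82 and 1.59, and in unfractionated cells 1.14 and 1.59. The Gr1+ arrays lay below every other sorted array, and replicate 3, the narrow one, was the highest of them. Ddx21 fell by 1.18 ± 0.23 (SE; 2.27-fold; limma adjusted p = 0.0173) and by 1.54 ± 0.14 (2.91-fold) without the narrow arrays. It was called under 15 of 24 alternatives, with limma adjusted p-values from 2.14e-06 to 1.00. The call was lost on leaving out Kit+Gr1-Sca1hi replicate 1 (-1.15), Kit+Gr1-Sca1lo replicate 1 (-1.14) or 2 (-1.17), or Gr1+ replicate 1 (-1.11) or 2 (-1.02). Among the other alternatives that ended the call were array medians and Kit+Gr1-Sca1hi cells alone as reference. No member was called in those fits, with 0.0893% and 0.305% of all genes called lower. Its 3 probes differed by -1.18 to -0.65.

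Nolc1, a chaperone of snoRNPs, differed by -1.14 ± 0.28 (limma adjusted p = 0.055), just outside the p threshold, and by -1.48 ± 0.15 without the narrow arrays, where it was called. Nucleolin (Ncl), among the most abundant nucleolar proteins, differed by -0.88 ± 0.65 (limma adjusted p = 1.00) and was called without the narrow arrays at -1.19 ± 0.16. Its 4 probes all read lower in Gr1+ cells, by 0.79 to 1.23. Nucleophosmin (Npm1), a histone and ribosomal protein chaperone, differed by -0.56 ± 0.60 and -0.66 ± 0.12 in the same fits. Npm3, a smaller relative of Npm1, read 2.91, 3.42 and 2.48 in Kit+Gr1-Sca1hi cells, 3.31, 3.39 and 3.26 in Kit+Gr1-Sca1lo cells and 3.03, 3.13 and 3.56 in Kit-Gr1- cells. In Gr1+ cells Npm3 read 2.25, 2.61 and 2.96, and in unfractionated cells 0.47 and 3.01. For Npm3, 2 Kit+Gr1- arrays lay below the highest Gr1+ array, so the groups overlapped. Npm3 differed by -0.52 ± 0.44 (limma adjusted p = 1.00), the smallest difference of this role.

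The box C/D snoRNP core, which methylates ribosomal RNA, was represented by 3 genes that had a median of -0.82. Nop58, a scaffold subunit, read 4.79, 4.63 and 3.69 in Kit+Gr1-Sca1hi cells, 4.85, 4.74 and 4.38 in Kit+Gr1-Sca1lo cells and 4.54, 4.51 and 4.48 in Kit-Gr1- cells. In Gr1+ cells Nop58 read 3.47, 3.23 and 3.61, and in unfractionated cells 1.49 and 3.71. No Gr1+ array overlapped the Kit+Gr1- arrays, although the narrow Kit+Gr1-Sca1hi replicate 3 was close to the highest of them. Nop58 differed by -1.08 ± 0.44 (limma adjusted p = 0.418). Fbl, the methyltransferase fibrillarin, read 6.33, 6.63 and 5.69 in Kit+Gr1-Sca1hi cells, 6.54, 6.71 and 6.52 in Kit+Gr1-Sca1lo cells and 6.32, 6.61 and 6.72 in Kit-Gr1- cells. In Gr1+ cells Fbl read 5.50, 5.50 and 5.89, and in unfractionated cells 3.31 and 6.01. Fbl arrays overlapped through that same Kit+Gr1-Sca1hi replicate 3. Fbl differed by -0.77 ± 0.61 and Nop56, the other scaffold, by -0.82 ± 0.50 (limma adjusted p = 1.00 and 0.965). On the wider arrays all 3 were called lower, Nop58 at -1.40 ± 0.13, Nop56 at -1.07 ± 0.18 and Fbl at -1.05 ± 0.16.

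The box H/ACA snoRNP core, which converts uridines to pseudouridines and also sits in telomerase, had a median of -0.79 over its 4 genes. Gar1, a subunit that helps the substrate RNA on and off the enzyme, read 1.92, 2.48 and 1.69 in Kit+Gr1-Sca1hi cells, 2.03, 2.49 and 2.27 in Kit+Gr1-Sca1lo cells and 2.17, 2.25 and 2.36 in Kit-Gr1- cells. In Gr1+ cells Gar1 read 0.67, 1.11 and 1.73, and in unfractionated cells 1.06 and 1.55. Gr1+ replicates 1 and 2 were the lowest sorted arrays for Gar1, and replicate 3 overlapped Kit+Gr1-Sca1hi replicate 3; both of these are narrow arrays. Gar1 differed by -0.98 ± 0.27 (limma adjusted p = 0.101), and Dkc1, the pseudouridine synthase dyskerin, by -0.94 ± 0.24 (0.0724 by the same test). Nop10, the smallest subunit, read 4.85, 5.37 and 4.33 in Kit+Gr1-Sca1hi cells, 5.26, 5.29 and 5.16 in Kit+Gr1-Sca1lo cells and 4.78, 5.17 and 5.39 in Kit-Gr1- cells. In Gr1+ cells Nop10 read 4.44, 4.34 and 4.70, and in unfractionated cells 1.95 and 4.83. Only Kit+Gr1-Sca1hi replicate 3 broke the separation of Nop10 in Gr1+ and Kit+Gr1- cells. Nop10 differed by -0.55 ± 0.53 and Nhp2, an RNA-binding subunit with 5 Kit+Gr1- values, by -0.63 ± 0.55. Without the narrow arrays Gar1 (-1.34 ± 0.21), Dkc1 (-1.26 ± 0.15) and Nhp2 (-1.06 ± 0.16) were called lower, and Nop10 (-0.80 ± 0.20) was not.

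The small subunit processome binds the nascent precursor and makes its first cuts; 7 of its 9 listed genes were measured, with a median of -0.67. Wdr75, of the UTP-A complex that binds first, read 2.31, 2.71 and 1.90 in Kit+Gr1-Sca1hi cells, 2.29, 2.74 and 2.50 in Kit+Gr1-Sca1lo cells and 2.42, 2.35 and 2.60 in Kit-Gr1- cells. In Gr1+ cells Wdr75 read 1.19, 1.23 and 1.78, and in unfractionated cells 0.69 and 1.78. Wdr75 arrays did not overlap between Gr1+ and the other sorted fractions. The difference was -1.01 ± 0.28 (limma adjusted p = 0.103), and -1.30 ± 0.18 without the narrow arrays, where Wdr75 was called. Utp14a read -1.38, -1.05 and -0.15 in Kit+Gr1-Sca1hi cells, -1.31, -1.33 and -1.18 in Kit+Gr1-Sca1lo cells and -1.50, -1.31 and -1.34 in Kit-Gr1- cells. In Gr1+ cells Utp14a read -1.69, -2.03 and -0.74, and in unfractionated cells 0.54 and -1.68. Utp14a, which activates the processome's helicase, was high on all narrow arrays except Kit+Gr1-Sca1lo replicate 3, and its groups overlapped. It had the smallest difference of the role, -0.42 ± 0.44 (limma adjusted p = 1.00).

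Of the other processome genes, Utp18, a subunit of the UTP-B complex, differed by -0.71 ± 0.26 (limma adjusted p = 0.333) and was called without the narrow arrays at -1.04 ± 0.15. Its second probe differed by -1.84, far more than the brighter probe that stood for the gene. Heatr1, a large scaffold also needed for polymerase I transcription, differed by -0.74 ± 0.36, Rrp9, a component of the U3 snoRNP, by -0.67 ± 0.33, Imp4, of a complex that helps U3 pair with the precursor, by -0.67 ± 0.27, and Nop14, a scaffold of the small subunit head, by -0.60 ± 0.31. None of these 4 was called with or without the narrow arrays, although all had a limma adjusted p under 0.05 without them.

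The late factors of the small subunit carry it to the cytoplasm, where its RNA is trimmed, and their 4 genes had a median of -0.71. Nob1, the endonuclease of the final cut, read 2.07, 2.37 and 1.40 in Kit+Gr1-Sca1hi cells, 2.10, 2.34 and 2.04 in Kit+Gr1-Sca1lo cells and 2.26, 2.29 and 2.58 in Kit-Gr1- cells. In Gr1+ cells Nob1 read 0.99, 1.17 and 1.38, and in unfractionated cells -0.29 and 1.76. The arrays of Nob1 were apart by a small margin, between Gr1+ replicate 3 and Kit+Gr1-Sca1hi replicate 3. Nob1 differed by -0.88 ± 0.37 (limma adjusted p = 0.451) and by -1.14 ± 0.16 without the narrow arrays, where it was called. Bysl, an export and assembly factor, read 3.31, 3.43 and 2.89 in Kit+Gr1-Sca1hi cells, 3.54, 3.47 and 3.44 in Kit+Gr1-Sca1lo cells and 3.52, 3.63 and 3.82 in Kit-Gr1- cells. In Gr1+ cells Bysl read 3.20, 2.83 and 3.12, and in unfractionated cells 1.17 and 3.35. Bysl overlapped through Kit+Gr1-Sca1hi replicate 3, and it read lower in Gr1+ than in Kit-Gr1- cells on every array. Bysl differed by -0.30 ± 0.38 (limma adjusted p = 1.00), and its 3 probes by -0.77 to -0.06. Tsr1, a relative of translation GTPases, differed by -0.83 ± 0.21 (0.0755 by the same test) and was called without the narrow arrays at -1.04 ± 0.15; the export factor Rrp12 differed by -0.60 ± 0.32 (0.784).

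Large subunit maturation had the smallest median of the roles, -0.58 over 9 genes. Rrp1b, a nucleolar protein of the early large subunit, read 1.03, 1.37 and 0.76 in Kit+Gr1-Sca1hi cells, 1.17, 1.16 and 1.13 in Kit+Gr1-Sca1lo cells and 0.31, 0.87 and 1.14 in Kit-Gr1- cells. In Gr1+ cells Rrp1b read 0.22, -0.26 and 0.61, and in unfractionated cells -0.42 and 0.44. Gr1+ arrays were below all Kit+Gr1- arrays for Rrp1b, but Kit-Gr1- replicate 1 was as low as the Gr1+ arrays. Rrp1b differed by -0.91 ± 0.27 (limma adjusted p = 0.143) and was called without the narrow arrays at -1.20 ± 0.24. Pes1, the pescadillo subunit of the PeBoW complex, read 3.69, 4.14 and 3.15 in Kit+Gr1-Sca1hi cells, 3.91, 4.06 and 3.81 in Kit+Gr1-Sca1lo cells and 3.64, 3.84 and 4.13 in Kit-Gr1- cells. In Gr1+ cells Pes1 read 3.39, 3.52 and 3.71, and in unfractionated cells 1.15 and 3.73. For Pes1, 2 Kit+Gr1- arrays lay below the highest Gr1+ array, and it had the smallest difference of all 37 members, -0.25 ± 0.45 (limma adjusted p = 1.00).

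Its partners in PeBoW, Bop1 and Wdr12, differed by -0.57 ± 0.41 and -0.58 ± 0.34. Nle1, on which a large remodelling ATPase acts, differed by -0.85 ± 0.22 (limma adjusted p = 0.0824) and was called without the narrow arrays at -1.09 ± 0.18. The RNA methyltransferase Nop2 differed by -0.58 ± 0.47, the nucleolar protein Nop16 by -0.71 ± 0.39, Rrs1, which loads the 5S particle, by -0.64 ± 0.23, and Mrto4, a placeholder for a stalk protein, by -0.55 ± 0.39. In the fit without the narrow arrays those 4 and both PeBoW partners differed by -0.98 (Nop16) to -0.80 (Nop2), none of them 2-fold. Of the called genes Tsr1 and Utp18 were nearest to the 2-fold threshold on its inner side.

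**Figure D2:**
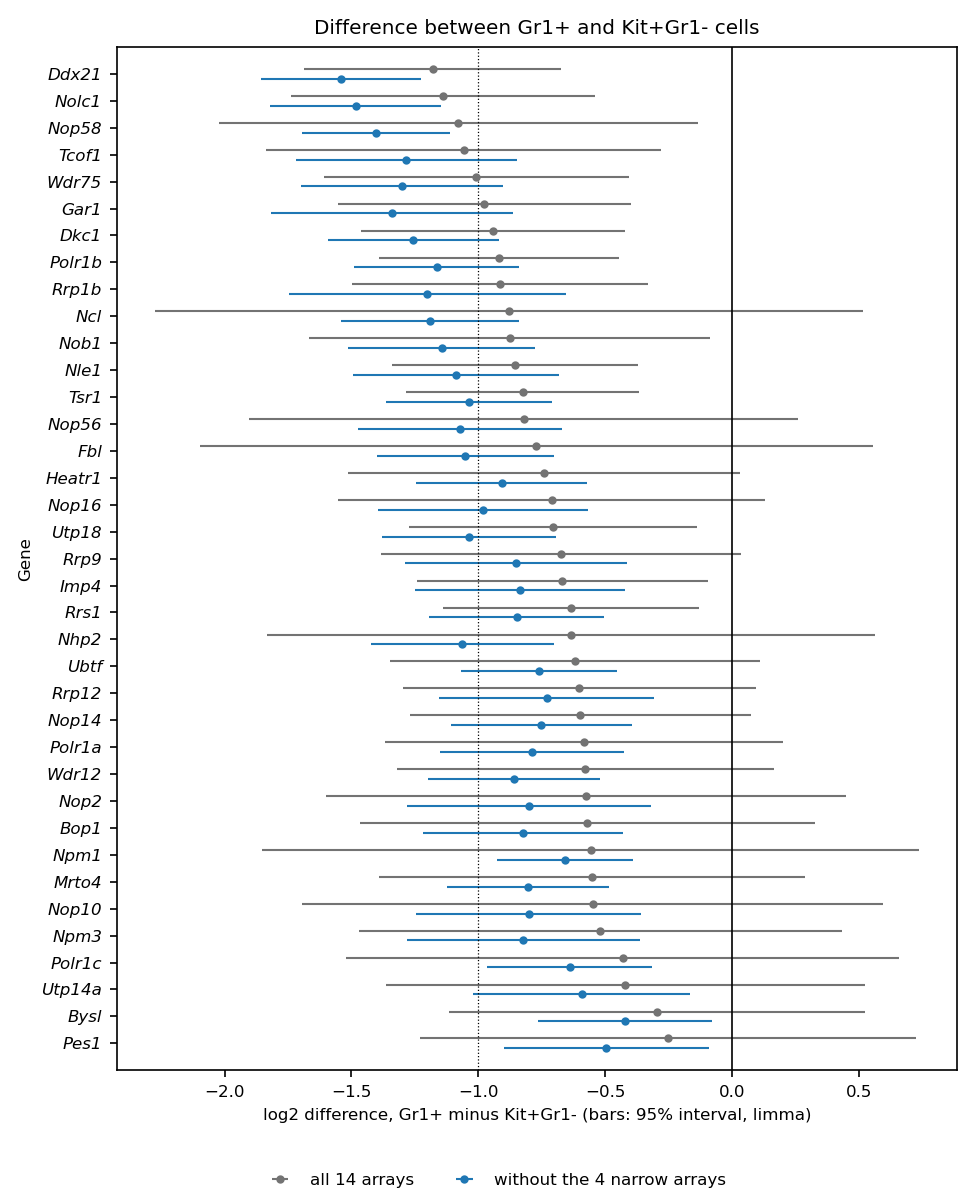
Fitted log2 difference of each gene, Gr1+ minus Kit+Gr1- cells, with its 95% interval from limma, in grey with all 14 arrays and in blue without the 4 narrow arrays; the dotted line marks a 2-fold lower level. Every point lies left of 0, from -1.18 to -0.25 in grey and from -1.54 to -0.42 in blue, and the blue intervals are shorter.

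In 16 members more than 1 probe was kept, and all of these probes read lower in Gr1+ than in Kit+Gr1- cells. Probes of a gene did not always point the same way in the other comparisons: in Gr1+ against Kit-Gr1- cells those of Heatr1 ran from -0.73 to 0.46, and in Kit-Gr1- against Kit+Gr1- cells those of Utp18 ran from -1.47 to 0.17. Slides could be compared too, since slides 1, 2 and 3 each held Gr1+ and Kit+Gr1- arrays. Each of these slides held 1 Gr1+ array, but the reference differed. It was 1 array of each Kit+Gr1- fraction on slide 1, 1 Kit+Gr1-Sca1lo array on slide 2 and 1 Kit+Gr1-Sca1hi array on slide 3. The median difference of the members was -0.80 within slide 1, -1.13 within slide 2 and -0.68 within slide 3, and 34 members read lower within all 3. Values over all genes are not given within slides, so these have no background here. Utp14a (0.31) and Rrp12 (0.06) read higher within slide 3, which holds the narrow Gr1+ array, and Nhp2 had no value on slide 1. Against Kit+Gr1-Sca1lo cells alone the median was -0.85 with 1 member called, and against Kit+Gr1-Sca1hi cells alone it was -0.58 with 0 called (0.379% and 0.305% of all genes called lower). With all 14 arrays the number of called members was also 0 without Kit+Gr1-Sca1hi replicate 1, Kit+Gr1-Sca1lo replicate 1 or 2, or Gr1+ replicate 1 or 2, with 0.111% to 0.398% of all genes called lower in those fits. It was 2 without Gr1+ replicate 3 (0.499% of all genes) and 3 without Kit+Gr1-Sca1hi replicate 3 (0.85%). It was 5 without unfractionated replicate 1 or 2, where 1.32% and 1.26% of all genes were called lower.

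The members of an array tended to read high or low together. Relative to each gene's mean over the Kit+Gr1- arrays, the median member stood at -0.72, -0.91 and -0.47 on the Gr1+ arrays, at -0.02, 0.00 and 0.21 on the Kit-Gr1- arrays, and at 0.14, 0.22 and 0.09 on the Kit+Gr1-Sca1lo arrays. The Kit+Gr1-Sca1hi arrays stood at -0.06, 0.24 and -0.53, so the narrow replicate 3 of that fraction was lower than the narrow Gr1+ array. On Gr1+ replicates 1, 2 and 3, respectively 27, 33 and 16 members read below every Kit+Gr1- array, against 5, 3 and 0 on the Kit-Gr1- arrays. The matching share of all genes is not given for single arrays, so such counts have no background here. The unfractionated arrays stood at -2.24 (the narrow one) and -0.45, and on the latter 15 members read below every Kit+Gr1- array. Since 1 of these 2 arrays stands apart, the unfractionated cells were not tested.

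**Figure D3:**
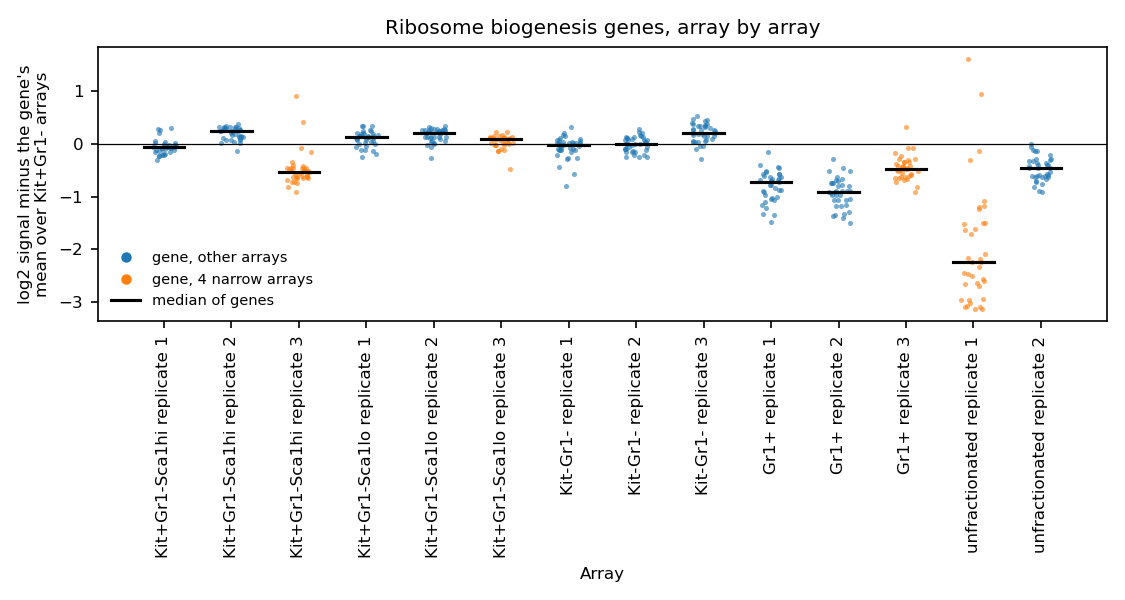
Log2 signal of each of the 37 genes (points) on each array, minus the gene's mean over the Kit+Gr1- arrays, with the median of the genes as a bar and the 4 narrow arrays in orange. The Gr1+ medians are -0.72, -0.91 and -0.47, the Kit-Gr1- medians lie between -0.02 and 0.21, and the narrow unfractionated array is at -2.24.

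Kit-Gr1- cells, with neither marker, were compared with the same reference. In Kit-Gr1- against Kit+Gr1- cells 0 of 37 members were called in either direction by limma, with 0.0123% of all genes called lower and 0.0554% higher, and 0 members had an unadjusted p under 0.05 (0.718% of all genes lower, 1.33% higher). The differences ran from -0.33 (Rrp1b) to 0.32 (Nob1) with a median of 0.08, and 12 of 37 were below 0 (70.5% of all genes). Ddx21 differed by -0.01 (95% interval -0.51 to 0.50), Nolc1 by 0.05 (-0.55 to 0.65) and Polr1b by -0.12 (-0.59 to 0.36). The sign of the median depended on the scaling: it was 0.40 with array medians, -0.12 with quantile normalization and -0.16 with unscaled values. The all-gene median moved as well, from -0.25 to 0.07 and 0.00 in the first 2 of these. With the narrow arrays left out 0 were called (0.14% of all genes lower, 0.349% higher) and the median was -0.06. With all arrays the widest intervals still admit differences of over 2-fold for some members, Ncl among them (-1.24 to 1.55). Without the narrow arrays the interval of Ncl was -0.28 to 0.34. In that fit the lowest bound of any member was -0.89 (Rrp1b) and the highest 0.52 (Bysl), both short of 2-fold.

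Set directly against Kit-Gr1- cells, which share no array with the reference above, Gr1+ cells again read lower for all 37 members. The median was -0.76, against 0.21 for all genes, of which 33.1% read lower. With array medians the medians were -1.05 for the members and -0.08 for all genes, and with quantile normalization -0.60 and -0.08. Ddx21 fell by 1.17 ± 0.27 (SE; limma adjusted p = 0.0489) and was the single member called, with 0.579% of all genes called lower and 1.03% higher. No member was called with array medians, quantile normalization, the unscaled values, the mean of all kept probes or probes above background on all 14 arrays. None was called with the replicate number as a block either (0.708% of all genes called lower). Nob1 differed by -1.20 ± 0.42 and Nolc1 by -1.19 ± 0.32 (limma adjusted p = 0.326 and 0.11), and Utp14a had the smallest difference, -0.11 ± 0.50. In 32 members all Gr1+ arrays lay below all Kit-Gr1- arrays, as in 13.5% of all genes; Nop2, Rrp1b, Rrp12, Pes1 and Utp14a overlapped.

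On the 10 wider arrays 11 members were called lower in Gr1+ than in Kit-Gr1- cells (2.94% of all genes) and 0 higher (3.38%): Ddx21, Nolc1, Gar1, Nob1, Wdr75, Ncl, Nop58, Dkc1, Fbl, Polr1b and Nop16. The first 10 of these were among the 17 called against Kit+Gr1- cells; both comparisons use the same Gr1+ arrays. The median was then -0.87, and Ddx21 differed by -1.40 ± 0.15. With all arrays, 0 members were called after leaving out any 1 Kit-Gr1- array or Gr1+ replicate 1 or 2, with 0.21% to 0.404% of all genes called lower in those fits. Without unfractionated replicate 1 or 2, 7 and 6 members were called, against 1.7% and 1.58% of all genes.

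The split of the Kit+Gr1- cells by Sca1 gave no called gene by limma, among the members or among all genes (0 of 32463). At an unadjusted p under 0.05, 0 members, 35 genes lower (0.108%) and 24 genes higher (0.0739%) were found. Members read lower in Kit+Gr1-Sca1hi than in Kit+Gr1-Sca1lo cells with a median difference of -0.22 and 34 of 37 below 0 (51.2% of all genes), Nhp2 having the lowest difference (-0.54 ± 0.68) and Utp14a the highest (0.41 ± 0.50). Without the narrow arrays the median was -0.04, and without Kit+Gr1-Sca1hi replicate 3 alone it was -0.01.

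The rest of the pathway was followed in 124 further ribosome biogenesis genes, of which 113 were tested. In Gr1+ against Kit+Gr1- cells 107 of the 113 read lower, with a median of -0.46, and 0 were called by limma with all arrays. At an unadjusted p under 0.05, 27 were lower (4.16% of all genes were) and 0 higher. The largest differences were those of Nat10, the RNA acetyltransferase of the small subunit (-1.12 ± 0.27, limma adjusted p = 0.0529), and Polr1e, a polymerase I subunit (-1.06 ± 0.33, limma adjusted p = 0.176). Their Gr1+ arrays read 0.10, -0.26 and 0.39 for Nat10 and -0.16, -0.43 and -0.06 for Polr1e, all below every Kit+Gr1- array. On the 10 wider arrays 20 of the 113 were called lower, where 3.32% of all genes were, and 0 higher, with a median of -0.65. By subgroup the medians with all arrays were -0.31 for 10 polymerase I genes, -0.42 for 6 snoRNP assembly genes, -0.47 for 38 small subunit genes, -0.48 for 45 large subunit genes and -0.38 for 14 exosome genes.

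The 79 cytosolic ribosomal protein genes, whose products the pathway assembles, had a median of 0.06 in the same comparison, with 25 below 0 and 0 called. On the wider arrays it was -0.15, again with 0 called (3.32% of all genes were called lower). At an unadjusted p under 0.05, 4 of the 79 were lower in that fit. Of all genes, 9.42% were lower there at the stricter limma adjusted p under 0.05. The sign of the ribosomal protein median thus depended on the arrays used, and also on the scaling, being -0.11 with quantile normalization. The 39 DNA replication genes tested had a median of -0.59 with 37 below 0 and 0 called, and 5 were lower at an unadjusted p under 0.05 (4.16% of all genes). On the wider arrays their median was -0.84 with 9 called lower, against 3.32% of all genes.

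**Figure D4:**
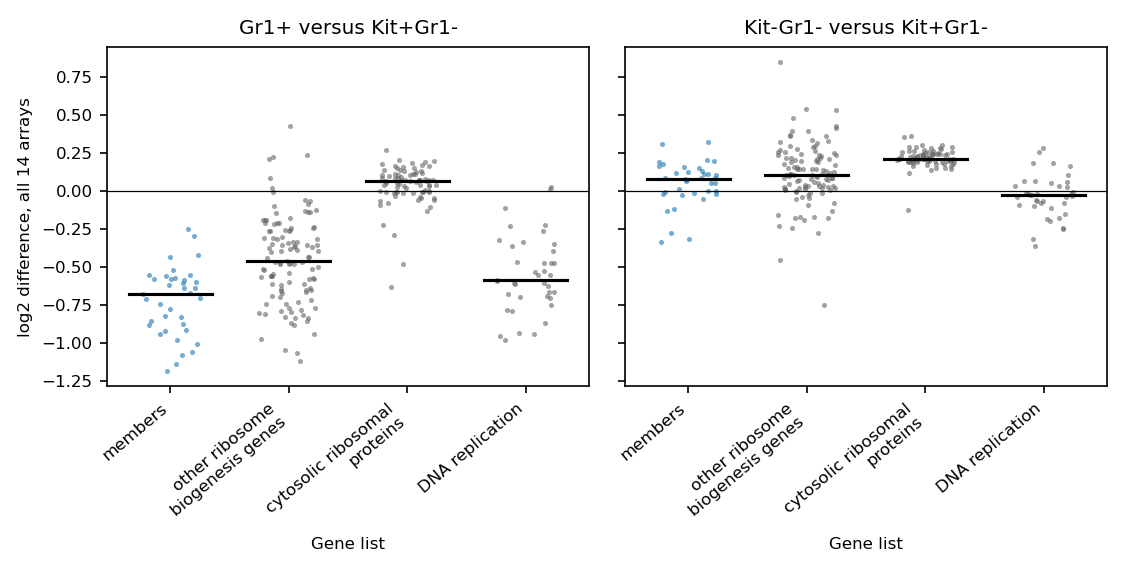
Fitted log2 difference of each gene (points) in 4 gene lists, with all 14 arrays, for Gr1+ (left) and Kit-Gr1- cells (right) against Kit+Gr1- cells; bars are medians. In Gr1+ cells the medians are -0.67 for the 37 members, -0.46 for 113 other ribosome biogenesis genes, 0.06 for 79 ribosomal protein genes and -0.59 for 39 DNA replication genes, and in Kit-Gr1- cells they are 0.08, 0.11, 0.21 and -0.03.

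Myc read 2.18, 2.70 and 2.01 in Kit+Gr1-Sca1hi cells, 2.08, 2.63 and 2.54 in Kit+Gr1-Sca1lo cells and 1.63, 2.17 and 2.50 in Kit-Gr1- cells. In Gr1+ cells Myc read 1.47, 2.12 and 2.23, and all these groups overlapped. Between Gr1+ and Kit+Gr1- cells it differed by -0.42 ± 0.38 (limma adjusted p = 1.00) and by -0.60 ± 0.29 without the narrow arrays. Its relative Mycn, named after its values were seen, read -0.63, -2.01 and -1.08 in Gr1+ cells against 0.81 to 1.47 in Kit+Gr1- cells. Mycn fell by 2.51 ± 0.35 (limma adjusted p = 0.00258) and by 2.69 ± 0.34 without the narrow arrays, and in Kit-Gr1- cells it differed by 0.04 ± 0.35. Of the 10 Myc network genes tested, 1 (Mycn) was called lower and 1 (Mxi1, a Myc antagonist, 1.24 ± 0.27) higher.

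Markers of several cell types read higher in the Gr1+ fraction, but not every marker of each type, and the sums below are carried by the brightest probes. All 12 neutrophil granule genes were above background on every Gr1+ array, and their summed signal, in multiples of the array's 75th percentile, was 1443 to 2031 there, 65.1 to 245 in Kit-Gr1- cells and 100 to 356 in Kit+Gr1- cells. Of these 12, 11 read higher on all Gr1+ arrays than on any other sorted array, Mmp9 being the exception. Eosinophil genes (7 tested) summed to 106 to 276 in Gr1+ cells and at most 3.71 in the other sorted fractions, and macrophage genes (5) to 28.0 to 47.8 against at most 4.14. For 5 of the 7 eosinophil genes (not Il5ra and Ccr3) and 3 of the 5 macrophage genes (not Mrc1 and Mertk) the Gr1+ arrays lay above all other sorted arrays. In Gr1+ cells 3 of the 5 macrophage genes were above background on all arrays. Mast cell and basophil genes (6) summed to 191 to 409 in Gr1+, 119 to 279 in Kit-Gr1- and 61.2 to 178 in Kit+Gr1- cells, but of these only Cpa3 lay above all other sorted arrays, and Mcpt4, Mcpt8, Prss34, Ms4a2 and Fcer1a overlapped. Red cell genes (9) summed to 25.4 to 47.1 in Kit-Gr1- cells and 2.69 to 5.87 in the other sorted fractions, and lymphoid genes (9) stayed between 2.28 and 5.35 in all sorted fractions. The part of these cells in the ribosome biogenesis differences was not tested.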

How the data were processed

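Per the file headers the scanner software was Agilent Feature Extraction 10.1.1.1 for each of the 14 arrays, and the deposited spot intensities are background-subtracted and detrended within each array, not scaled between arrays. The deposited series values are log2 of the same signals. Total RNA (150 ng) was labelled with Cy3 per the labels' protocols. Control spots and outlier flags were removed, and probes well above background on at least 3 arrays were kept (40278 of 41174). Log2 signals were set to each array's 75th percentile. Probes were named by accession through RefSeq (16535 symbols for 23374 probes), and the brightest probe stood for a gene. Unnamed probes were kept under their accession, giving 32463 genes. Groups were compared with limma 3.58.1 (R 4.3.3; lmFit, eBayes with trend) over all 14 arrays, and p-values were adjusted by the Benjamini-Hochberg method over all genes. The method was tested on simulated data with independent noise on each array and planted changes larger than those of the members. Changes as small as theirs were not simulated.

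Members, lists and tests were chosen with earlier results of these data known. Array values are given for called members and, in each role, for those with the largest and the smallest difference in Gr1+ against Kit+Gr1- cells; Myc was named, and of other pathway genes the 2 with the largest change. The normexp alternative (offset 50) used median spot signals. Same-numbered Gr1+ and Kit+Gr1- arrays, and same-numbered Sca1hi and Sca1lo arrays, had correlated deviations from their group means (r of 0.62 to 0.87). Some differently numbered arrays did too, such as Kit+Gr1-Sca1hi replicate 1 and Gr1+ replicate 2 (r = 0.66). Replicate 3 of each of these fractions was also a narrow array. These correlations therefore could not show whether the numbers pair arrays, and the main fit held no replicate term. Same-numbered pairs of Kit-Gr1- with other sorted arrays had r of -0.23 to 0.21, not all above 0.1, and were not taken as paired. Yet the neutrophil granule gene S100a8 followed the number. In replicates 1, 2 and 3 it read -7.56, 1.19 and -1.20 in Kit+Gr1-Sca1hi cells and -8.01, 0.85 and -0.58 in Kit+Gr1-Sca1lo cells. In Kit-Gr1- cells it read -8.40, 1.45 and 0.24. The red cell gene Klf1 did not follow it, and replicate 1 of each sorted fraction lay on slide 1. Whether the numbers pair arrays was not tested. Alternatives changed the scaling, background, probe filter, probe choice, blocks, array weights and arrays used. Chromosome positions of promoters are those of GRCm38.p6.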

Additional observations from a re-analysis of the deposited data

How the results depend on the processing

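In Gr1+ against Kit+Gr1- cells 1 member was called (0.641% of all genes lower). With the share of all genes called lower in the same fit, it was 0 with array medians (0.0893%), 6 with quantile normalization (0.595%), 4 with the unscaled deposited values (0.508%), 3 with normexp (0.45%), 6 with slide as a block (0.958%), 13 with array weights (2.65%), 17 without the 4 narrow arrays (3.32%) and 0 against Kit+Gr1-Sca1hi cells alone (0.305%). Leaving out 1 array at a time gave 0 to 5 (0.111% to 1.32%). The median of the members was -1.13 within slide 2, where 1 Gr1+ array was set against 1 Kit+Gr1-Sca1lo array. In Gr1+ against Kit-Gr1- cells 1 was called, and 0 with array medians (median -1.05), quantile normalization (median -0.60), the unscaled values, probes above background on all 14 arrays or the mean of all kept probes (0.234% to 0.816%). It was 3 with slide as a block (0.866%), 8 with array weights (2.25%), 11 without the narrow arrays (2.94%), and 0 to 7 on leaving out 1 array (0.21% to 1.7%). With the replicate number as a block, 0 were called there (0.708%) and 1 still in Gr1+ against Kit+Gr1- cells (0.767%); the replicate block changed no other count. The median in Kit-Gr1- against Kit+Gr1- cells became 0.40 with array medians and -0.17 within slide 2. Between Kit+Gr1-Sca1hi and Kit+Gr1-Sca1lo cells it became -0.50 with slide as a block and -0.65 within slide 4. Counts in these last 2 comparisons were 0 under every alternative run. The cause of these shifts was not tested. Precision is limited by 2 or 3 arrays a group, and the spread was pooled over all groups, the unfractionated cells included. For Npm1 the SD was 1.86 in unfractionated, 0.09 in Gr1+ and 0.03 in Kit-Gr1- cells. For Ddx21 it was 0.32 in unfractionated, 0.40 in Gr1+ and 0.14 in Kit-Gr1- cells. Saturation did not touch the members.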
